A study of Mus musculus with 10 samples.

Results

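The endothelial nuclei of the mouse paraventricular thalamus and its surroundings were taken by their deposited cluster name. Every nucleus whose cluster name contained the word for endothelium was used, which gave 215 of the 20503 nuclei. The tissue was punched from the thalamic midline nucleus PVT and from regions around it, in C57BL/6J animals that were 12 weeks old. The methods describe a pool of 4 animals behind each sample for a set of 4 biological replicates. There were 4 libraries titled biol_rep, for which the sample labels give no sex and the deposited metadata give male, and 6 titled female_biol_rep. No mouse was treated or carried an altered allele according to the labels, so the only groups were these sets of libraries and the cell types. Libraries held between 875 and 7213 nuclei and between 5119927 and 55956635 UMIs (unique molecular identifiers, each counting 1 captured RNA molecule). The set, the annotation of its counts and the sex cannot be told apart, because all 13002 biol_rep nuclei were marked male and all 7501 female_biol_rep nuclei female.

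Brain endothelial cells line the blood vessels and form the blood-brain barrier. They seal the space between neighbouring cells with tight junctions, pump foreign compounds back to the blood with ATP-driven transporters, and carry glucose, amino acids and hormones inward through dedicated carriers. Wnt signals from the surrounding tissue, read through Frizzled receptors and beta-catenin, are known to maintain this state, and pericytes, the mural cells of capillaries, share a basement membrane with the endothelium.

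Endothelial nuclei made up 1.06% ± 0.347 of the nuclei of a library (SD, n = 10). The share was lowest in female_biol_rep 3, with 7 of 1211 nuclei (0.578%, exact 95% binomial interval 0.233% to 1.19%), and highest in female_biol_rep 6, with 18 of 1095 (1.64%, 0.977% to 2.59%). The median library had 1.08%. It averaged 1.00% ± 0.275 in biol_rep libraries (n = 4) and 1.10% ± 0.408 in female_biol_rep libraries (n = 6), a difference of 0.0992 percentage points within the spread of the libraries (2-sided exact permutation test over 210 splits, p = 0.695). As a share of non-neuronal nuclei the values were 1.99% ± 0.617 and 2.30% ± 0.802 (p = 0.571, exact permutation test). Fewer endothelial cells in the tissue and fewer of their nuclei recovered cannot be told apart. Intervals cover counting error only.

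The deposited percent of mitochondrial UMIs was higher in endothelial nuclei than in the library as a whole in 10 of 10 libraries. Its median was 1.44% in biol_rep endothelial nuclei and 3.17% in female_biol_rep ones, against 0.160% and 0.774% in neurons and 0.770% and 2.32% in oligodendrocytes. Ependymal nuclei had higher medians still, 2.00% and 3.40%. Among nuclei with less than 1% the endothelial share was 0.253% ± 0.190 and 0.192% ± 0.114 of the nuclei of a library, and 38 of the 215 endothelial nuclei lay below that limit.

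The depth of endothelial nuclei varied between libraries. Their median was 1756 UMIs per nucleus, against 11157 in neurons and 2321 in oligodendrocytes. Over the 7 libraries with at least 10 endothelial nuclei, the library medians ran from 1266 UMIs in biol_rep 4 to 6180 in biol_rep 1. The means of these medians, 3055 ± 2716 (n = 3) and 3363 ± 1896 (n = 4), did not differ beyond the spread (exact permutation test over 35 splits, p = 0.971, where 0.0286 is the smallest p possible). These 7 libraries supplied 1 sum of UMIs each for the comparisons below, 647275 UMIs together. Biol_rep 2 and female_biol_rep 2 and 3, with 6, 8 and 7 endothelial nuclei, supplied none. Between libraries 46 barcodes were shared, none of them by an endothelial nucleus.

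The label was set beside marker lists. Since the nuclei were clustered on these same genes and the cluster was named from Flt1, the values below describe the nuclei and do not test the name. Of 18 genes taken as the endothelial core (Flt1, Cldn5, Pecam1, Cdh5, Tek and others), 199 of the 215 nuclei had UMIs of at least 3, and each had UMIs of at least 1. In fibroblasts 18 of 179 nuclei had 3 or more, and in oligodendrocytes 1 of 2462. A UMI of Flt1, the receptor for vascular endothelial growth factor (VEGF) that names the cluster, was present in 191 endothelial nuclei. After every nucleus was thinned to 1000 UMIs, which left 159 endothelial and 2314 oligodendrocyte nuclei and left out 56 and 148, Flt1 was found in 95.4% ± 6.11 of endothelial nuclei and 0.0140% ± 0.0371 of oligodendrocytes (SD, n = 7 libraries). Median depths before thinning were 2734 and 2378.5 UMIs, and the unthinned shares were 88.8% and 0.284%.

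Neuronal RNA was also present, most of it in biol_rep 3 and biol_rep 4. Each nucleus was assigned to the marker list with the largest share of its genes detected. By this rule 112 of the 215 were led by the endothelial core, 83 by a list of 8 neuron genes and 9 by a list of mural genes. Of the 53 nuclei of biol_rep 3 the neuron list led in 30, and of the 64 of biol_rep 4 in 43. Nuclei led by the neuron list were shallow, with a median of 1020 UMIs against 2905.5 in those led by the core. They had a median of 5 core genes against 13, a difference that follows in part from the grouping. Flt1 was found in 63 of the 83.

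**Figure D1:**
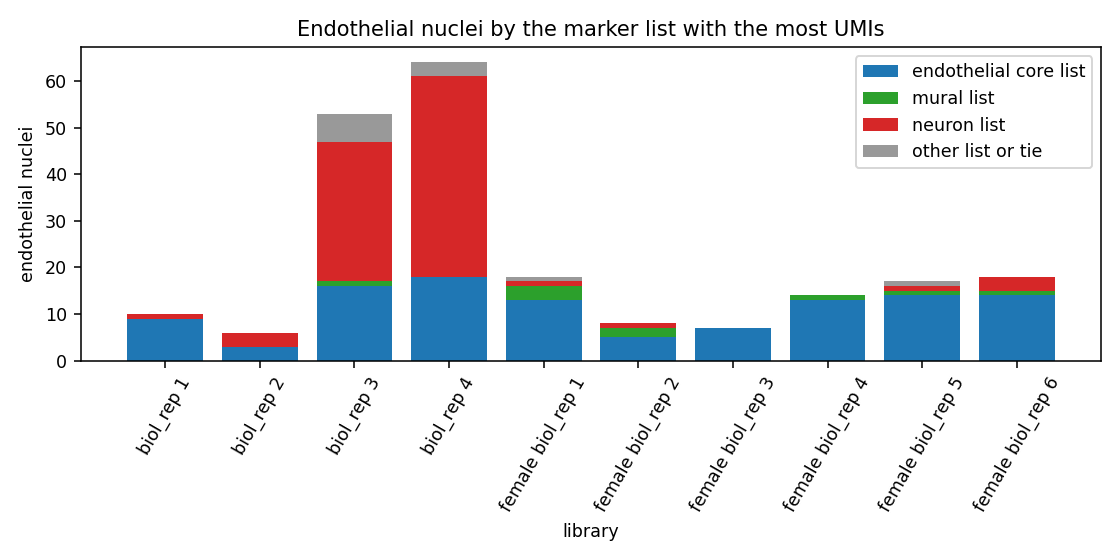
Endothelial nuclei per library (vertical axis, number of nuclei), stacked by the marker list with the largest share of its genes detected in each nucleus. The title of the plot says most UMIs, but shares of genes detected were used. Biol_rep 3 and biol_rep 4, with 53 and 64 nuclei, hold 73 of the 83 nuclei led by the neuron list.

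The summed neuron list reached 9537 and 14760 of every 1000000 UMIs (UMIs per 1000000, here UPM) in the endothelial sums of biol_rep 3 and 4. It was 1542 in biol_rep 1, and 5432, 537, 1860 and 904 in female_biol_rep 1, 4, 5 and 6. Its most abundant gene there was Kcnip4, a potassium channel subunit, with 3808 and 7744 UMIs per 1000000 scaled by library (CPM) in biol_rep 3 and 4 and between 299 and 1008 CPM in the other 5 sums. Other types carried it too. In each of the other non-neuronal types biol_rep 4 had the highest level of the libraries summed, with 13140 UPM in microglia, 20590 in fibroblasts and 6317 in oligodendrocytes. Biol_rep 3 came next in astrocytes, ependymal cells and oligodendrocyte precursors, but at 5375 UPM in microglia it lay below biol_rep 1 at 11240, at 3717 in fibroblasts below female_biol_rep 4 at 17440, and at 2974 in oligodendrocytes below female_biol_rep 5 at 3728. Neurons held between 33750 and 39670. None of its 8 genes was called higher or lower in endothelial nuclei than in the mean of the other types. For the comparisons between cell types, counts of calls are also given without these 2 libraries and without the nuclei led by another list. The latter setting left biol_rep 1 with 9 endothelial nuclei, under the limit of 10, so its endothelial sum was lost there too.

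**Figure D2:**
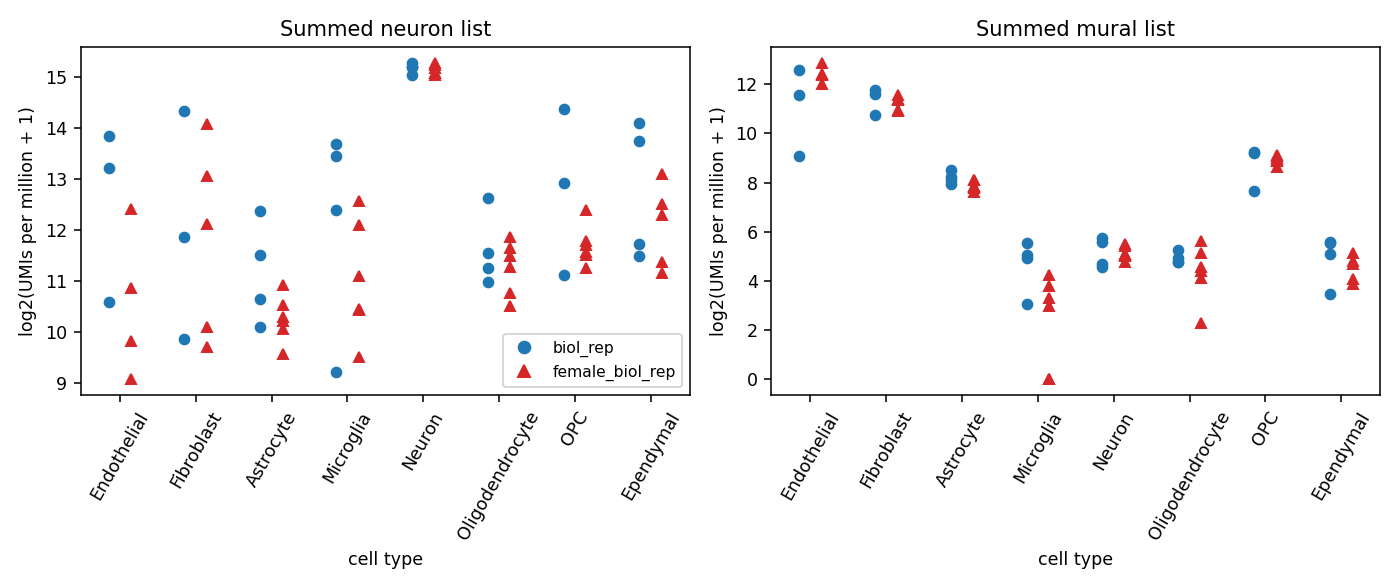
Summed UMIs of the neuron list (left) and the mural list (right) per 1000000 UMIs, on a log2(value + 1) scale, in each library sum of each cell type. Biol_rep 3 and 4 hold the highest neuron values of the endothelial sums (9537 and 14760 UPM), and 6 of the 7 endothelial sums lie above every sum of the types other than fibroblasts in mural values, while biol_rep 4 (536 UPM) lies among the OPC sums (203 to 613 UPM).

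Endothelial nuclei were first compared with the mean of the other 7 deposited types, which were neurons, astrocytes, oligodendrocytes, their precursors (OPCs), microglia, ependymal cells and fibroblasts. In edgeR's quasi-likelihood test on the sums, 1564 of 9842 tested genes were called higher (adjusted p under 0.05 and log2 fold change over 0.5), which is 15.9%, and 1913 were called lower, which is 19.4%. The comparison averages log2 levels over the 7 types, so a gene abundant in 1 other type can still be called higher; 1116 of the tested genes had their highest mean CPM in endothelial nuclei. These calls, too, describe the cluster and do not test its name. Without the nuclei led by other lists the counts were 1562 higher and 2437 lower, and without biol_rep 3 and 4 they were 1589 and 1816. With at least 20 nuclei per sum, which keeps only biol_rep 3 and 4 as endothelial sums, they were 990 and 320. With biol_rep libraries alone they were 1023 and 356, so that in both settings more genes were called higher than lower. Higher calls were also the more numerous without biol_rep 1 (1655 and 1518) and without female_biol_rep 1, 3, 4 or 5. The same held with female_biol_rep libraries alone (1606 and 1569) and without the filter on low counts (1930 and 1881). Which direction held more calls therefore depended on the setting.

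Flt1 stood at 5579, 3733 and 3733 CPM in biol_rep 1, 3 and 4 and at 3561, 4688, 4992 and 3305 CPM in female_biol_rep 1, 4, 5 and 6. All 7 sums lay far above the mean of fibroblasts, the next-highest type with 35.9 CPM, and above 0.866 CPM in astrocytes. The mean of 4227 ± 857 CPM (SD, n = 7) was 118 times the fibroblast mean, and the fitted log2 fold change was 11.46 (SE 0.24, adjusted p 5.4e-47). A fitted fold of a gene at 0 in another type, such as Flt1 in OPCs, depends in part on the prior count, so folds over the next-highest type are given where they bear on a level.

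Cldn5, the main tight junction protein of brain vessels, ran from 1161 to 2966 CPM with a median of 1842, against 16.5 in fibroblasts (log2 fold change 11.04, SE 0.22, adjusted p 1.8e-48). Slco1a4, a carrier of organic anions and steroid conjugates, ran from 1576 to 3186 CPM with a median of 2645, against 21.2 in fibroblasts (10.98, SE 0.26, adjusted p 8e-48). No endothelial sum overlapped the means of other types in either gene. Adgrl4, an adhesion receptor of endothelium, had 1280 ± 398 CPM, and Ly6c1 and Ly6a, surface proteins of brain endothelium, had 743 ± 344 and 641 ± 399 CPM. Nostrin, which traffics endothelial nitric oxide synthase, Robo4, a guidance receptor of vessels, and the transcription factors Foxq1, Erg and Tbx3 were also among the 15 highest by the naming rule, at 483, 103, 161, 231 and 121 CPM. So were Adgrf5, an adhesion receptor, at 743 ± 139 CPM, and Zfp366, a zinc finger protein, at 378 ± 104 CPM. Rgs5, a pericyte marker, and Slc22a8, an organic anion transporter, completed the 15, and their levels are given below.

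The 5 lowest called genes were at 0 in all 7 endothelial sums, and bounds are given against 3 counts over these sums. Sema3d, a secreted semaphorin, was at least 83.6 times lower than in OPCs, and Fbn2, a fibrillin of the matrix, at least 25.3 times lower than in the same type. Padi2, a peptidylarginine deiminase, was at least 19.9 times lower than in oligodendrocytes, and Disp3 at least 14.1 times lower than in astrocytes. 9130015G15Rik had 83.3 CPM in microglia, its highest type.

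The starts of the most abundant of these genes are shown because their RNAs were high together. Sequences are the 250 bases before the annotated RefSeq start in GRCm38.p6, 5′ to 3′ on the strand of the gene, and none of these bases lies in a GENCODE vM21 exon. The RefSeq gene records span chr5:147561604-147726438 for Flt1, chr6:141805438-141856284 for Slco1a4, chr16:18776847-18778262 for Cldn5 and chr3:151437882-151545081 for Adgrl4. The records of Flt1 and Slco1a4 include transcripts with starts farther out, so all 250 bases of the Flt1 window and 64 bases of the Slco1a4 window lie within them. Capitals mark exact matches on either strand to AGGAAG, a core of sites of ETS factors such as Erg, or to AACAAT, a core of SOX sites.
Flt1, chr5:147726012-147726261, minus strand: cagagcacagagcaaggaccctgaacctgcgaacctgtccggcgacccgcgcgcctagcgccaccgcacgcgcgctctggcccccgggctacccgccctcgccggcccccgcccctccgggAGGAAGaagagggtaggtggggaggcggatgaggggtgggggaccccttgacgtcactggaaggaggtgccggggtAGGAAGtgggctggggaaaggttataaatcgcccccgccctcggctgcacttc
Slco1a4, chr6:141856221-141856470, minus strand: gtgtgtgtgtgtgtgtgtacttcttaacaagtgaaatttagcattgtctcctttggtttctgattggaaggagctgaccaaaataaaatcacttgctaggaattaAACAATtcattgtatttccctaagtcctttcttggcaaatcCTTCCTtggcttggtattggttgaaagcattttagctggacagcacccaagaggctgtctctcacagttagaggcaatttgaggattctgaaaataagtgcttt
Cldn5, chr16:18776597-18776846, plus strand: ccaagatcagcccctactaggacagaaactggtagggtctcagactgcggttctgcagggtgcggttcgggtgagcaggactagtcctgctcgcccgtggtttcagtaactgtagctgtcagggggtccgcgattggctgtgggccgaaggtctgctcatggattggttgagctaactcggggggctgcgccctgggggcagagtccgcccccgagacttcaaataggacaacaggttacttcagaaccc
Adgrl4, chr3:151437632-151437881, plus strand: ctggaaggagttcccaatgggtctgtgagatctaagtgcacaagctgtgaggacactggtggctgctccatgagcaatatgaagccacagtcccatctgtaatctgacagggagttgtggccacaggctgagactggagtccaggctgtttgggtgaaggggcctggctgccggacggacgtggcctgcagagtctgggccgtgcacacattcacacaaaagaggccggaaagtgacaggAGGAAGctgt
Flt1 held AGGAAG 53 and 129 bases before the start and Adgrl4 held it 10 bases before. In Slco1a4 its reverse complement began 104 bases before the start and AACAAT began 145 before, and Cldn5 held neither. Of the 28 genes that were among the 15 highest or in the core list, 17 had a promoter in the table. Over the window from 250 before to 50 after a start, 12 of these 17 held AGGAAG on either strand, against 38.4% of 27025 genes. AACAAT was in 4 of the 17, against 12.2%, and CTTTGAT, a core of TCF/LEF sites, in 1 against 4.29%. A match of letters is a description and no evidence that a factor binds there.

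**Figure D3:**
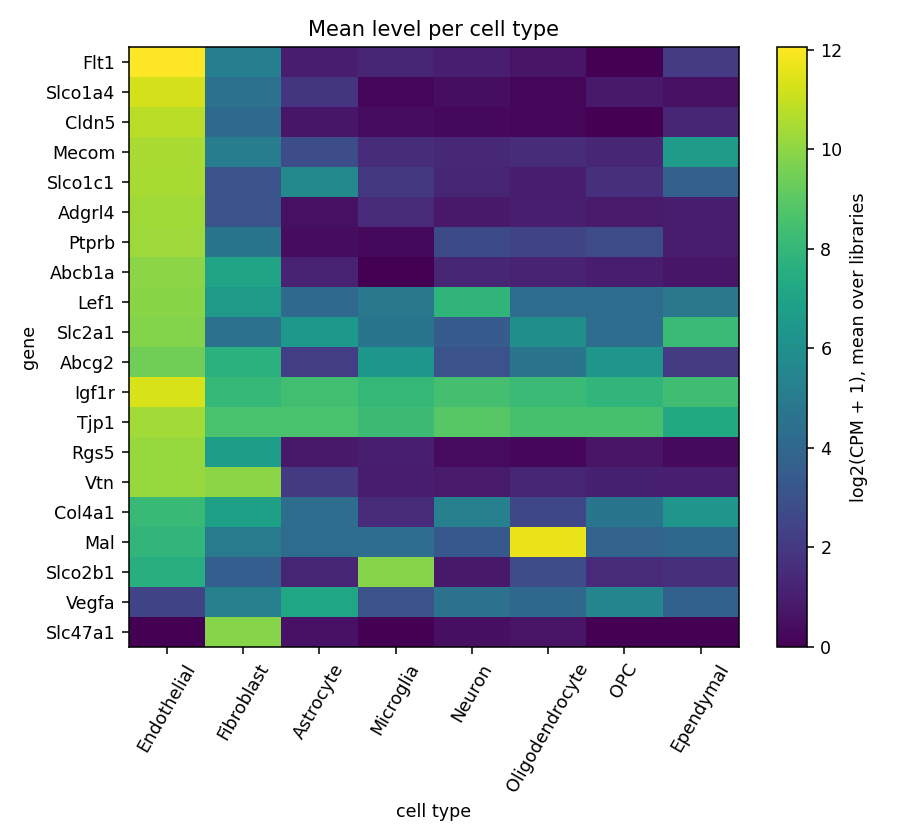
Mean level of 20 genes in each deposited cell type, as log2(CPM + 1) averaged over library sums (colour). Flt1, Slco1a4 and Cldn5 are brightest in endothelial nuclei, Mal is brightest in oligodendrocytes (3326 CPM) and Slc47a1 in fibroblasts (936 CPM).

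The lists that describe the barrier were counted against the background of 15.9% called higher and 19.4% lower. The median log2 fold change of all tested genes was -0.23. The filter asks for counts in as many sums as the smallest type has, and endothelium is that type. A gene nearly absent elsewhere could pass only through its endothelial sums. Higher calls among members that passed were therefore in part fixed in advance, here and in the lists below. Of the 18 core genes 16 passed the filter on low counts and all of those 16 were called higher, with a median over all 18 of 9.12, or 7.73 when types below the level of 3 counts were set at that level. Egfl7 and Sox18 did not pass. Egfl7, a secreted protein of endothelium, ran from 243 to 467 CPM in the biol_rep sums and from 0 to 25.5 CPM in the female_biol_rep sums. All nuclei together held 721 UMIs of Egfl7 in biol_rep and 7 in female_biol_rep (log2 ratio -5.23), of which 166 and 6 were in endothelial nuclei.

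Of 12 genes of tight and adherens junctions, Cdh5 among them, 10 passed the filter and those 10 were called higher (median log2 fold change 5.12 over the 10, and 4.06 over all 12). Beside Cldn5 they included Tjp1, a scaffold protein, at 1347 ± 309 CPM (log2 fold change 2.01, SE 0.11), Ocln, at 228 ± 44.6 CPM (4.72, SE 0.23), Esam, an adhesion molecule, at 318 ± 80.9 CPM, and Cgnl1 at 340 ± 76.6 CPM. Tjp1 was widespread, with 485 CPM in neurons, while Esam reached 18.6 CPM in the next type. Cgn was at 0 in all 7 sums, and F11r, which is higher in microglia (309 CPM), was called higher with 69.8 ± 32.4 CPM.

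Of 5 ATP-driven efflux genes, 3 were called higher and 1 lower. Abcb1a, which encodes P-glycoprotein, ran from 662 to 1196 CPM with a median of 999, against 131 in fibroblasts and less than 2 CPM in every other type. The values of the 7 sums did not reach down to the fibroblast mean, and the log2 fold change was 9.12 (SE 0.24, adjusted p 1.1e-41). Abcg2 followed with 701 ± 213 CPM (4.91, SE 0.18) and Abcc4 with 569 ± 187 CPM (4.18, SE 0.20). Abcc5, a transporter of cyclic nucleotides, was lower, at 55.0 ± 15.1 CPM against 331 in neurons (-1.81, SE 0.17, adjusted p 2e-14), and Abcc1 was not called (21.8 ± 17.1 CPM, adjusted p 0.11).

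Of 17 carriers 14 passed and all 14 were called higher. The glucose transporter Slc2a1 ran from 663 to 1150 CPM with a median of 932, and the next type, ependymal cells, had 299 (4.49, SE 0.17, adjusted p 3e-35). Slco1c1, which carries thyroxine, had 1399 ± 287 CPM against 49.2 in astrocytes (8.29, SE 0.22). Slc7a5, a carrier of large neutral amino acids, had 444 ± 168 CPM (5.73, SE 0.21), and Slc6a6, the taurine transporter, 1148 ± 411 CPM (3.66, SE 0.16). Some carriers were shared with other types, because Slco2b1 was at 192 ± 53.3 CPM in endothelial nuclei and 940 in microglia, and Mfsd2a, a carrier of docosahexaenoic acid, at 129 ± 57.6 CPM and 215 in OPCs. Slc22a8, an organic anion transporter, had the smallest SD relative to its mean of the 17 carriers, at 382 ± 28.6 CPM.

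Receptors that move ligands across or into endothelium gave 6 called higher of 7 that passed, in a list of 8. Igf1r, the receptor of insulin-like growth factor 1, had 2511 ± 546 CPM and ran from 1969 to 3455, above the 360 CPM of neurons in all 7 sums (3.09, SE 0.13, adjusted p 6.9e-34). Tfrc, the transferrin receptor, had 365 ± 146 CPM (3.64, SE 0.21) and Insr, the insulin receptor, 454 ± 127 CPM (1.67, SE 0.14).

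**Figure D4:**
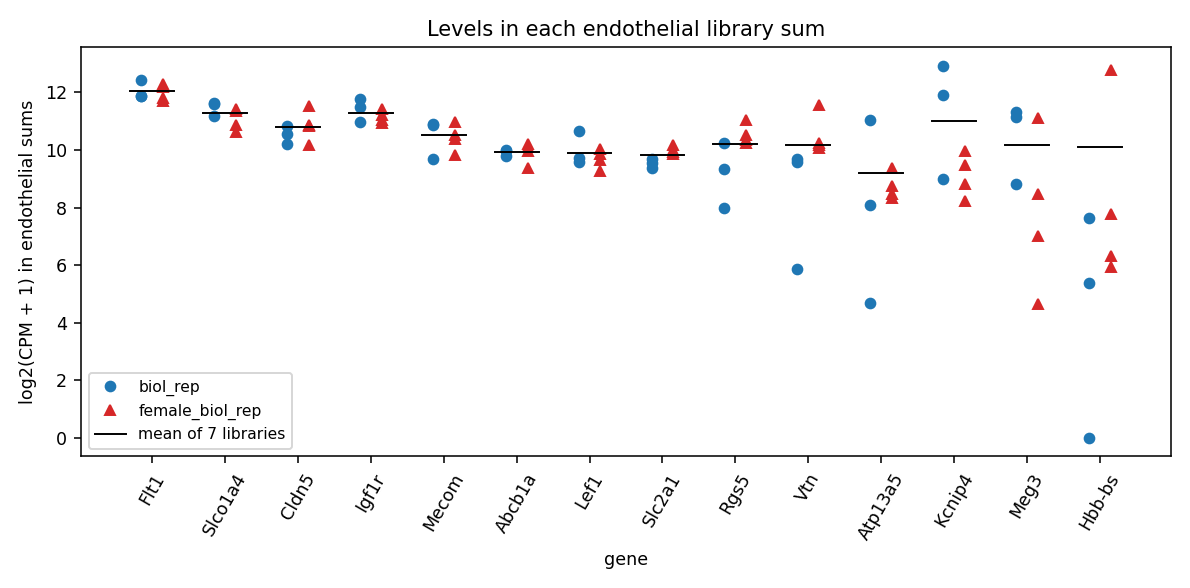
Level of 14 genes in each of the 7 endothelial library sums, as log2(CPM + 1), with biol_rep libraries as circles, female_biol_rep libraries as triangles and the line at the log2 of the mean CPM plus 1. Barrier genes such as Flt1 (3305 to 5579 CPM) lie close together, while Vtn, Kcnip4, Meg3 and Hbb-bs (0 to 7095 CPM) are scattered.

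Genes of the Wnt pathway that are active in barrier endothelium were called higher in 12 of 13 that passed, in a list of 16. Lef1, a transcription factor of the pathway, stood at 1625, 768 and 835 CPM in biol_rep 1, 3 and 4 and between 614 and 1040 CPM in the female_biol_rep sums. Neurons had 232 CPM, below every endothelial sum (4.65, SE 0.26, adjusted p 3.2e-26). The receptor Fzd6 had 287 ± 91.4 CPM (5.38, SE 0.23), Apcdd1, an inhibitor of the pathway, 279 ± 78.2 CPM (5.65, SE 0.29), and Ctnnb1, which encodes beta-catenin, 459 ± 197 CPM (1.96, SE 0.14). The co-receptor Lrp6 was not called (107 ± 38.2 CPM, log2 fold change -0.09, adjusted p 0.74).

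In the VEGF and angiopoietin systems several receptors were called higher. Of 9 VEGF genes 7 passed, with 4 higher and 2 lower, and of 5 angiopoietin genes 3 were higher. Those 3, Tek, Tie1 and Ptprb, are also in the core list, as are Flt1 and Kdr. Other lists share members with the core too, such as Cldn5, Eng and Erg, so their counts are not separate from it. Besides Flt1, Kdr, the main signalling receptor of VEGF, had 297 ± 126 CPM (7.19, SE 0.28), and the co-receptor Nrp1 374 ± 146 CPM (2.91, SE 0.18). The ligand Vegfa was at 0 in 5 of the 7 sums, at 8.19 and 23.9 CPM in biol_rep 4 and female_biol_rep 4, and at 136 CPM in astrocytes, and it was called lower (-2.65, SE 0.74, adjusted p 0.0029). The value rests on 3 UMIs over the 7 sums, and without female_biol_rep 4 it was -3.95 (SE 0.94). The call was lost without biol_rep 3 and 4 (-1.97, SE 0.88, adjusted p 0.0772), in female_biol_rep libraries alone (-1.58, SE 1.11, adjusted p 0.289) and with at least 20 nuclei per sum (-2.91, SE 1.22, adjusted p 0.139). The angiopoietin receptor Tek had 446 ± 69.5 CPM (5.92, SE 0.21), Tie1 146 ± 49.6 CPM (9.31, SE 0.33) and the phosphatase Ptprb 1240 ± 310 CPM (8.72, SE 0.23). The ligands Angpt1 and Angpt2 were not called (28 and 23 CPM, adjusted p 0.87 and 0.89).

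Transcription factors of endothelium were called higher in all 15 that passed, of 20. Mecom had 1479 ± 483 CPM against 100 in ependymal cells (8.17, SE 0.26), Epas1, which responds to low oxygen, 845 ± 408 CPM (5.08, SE 0.16), and Klf2, a factor induced by blood flow, 487 ± 232 CPM (7.29, SE 0.28). Fli1, an ETS factor of endothelial and blood cells, had 722 ± 234 CPM and a mean of 817 CPM in microglia.

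Genes of TGF-beta and bone morphogenetic protein (BMP) signalling were called higher in 9 of 11. They included the receptor Bmpr2, at 639 ± 155 CPM (2.23, SE 0.12), the co-receptor Eng, at 437 ± 75.7 CPM (7.69, SE 0.24), and the target Id1, at 444 ± 257 CPM (6.40, SE 0.26). The list as a whole was not highest in endothelium, since it summed to a median of 3100 UPM (1725 to 3766) there and 3538 UPM (2908 to 3970) in microglia. Bmp6 was called with a median of 12.8 CPM and a highest sum of 306 CPM in female_biol_rep 6; without that library the log2 fold change was -0.073. Of 9 Notch genes 3 passed and were called, Notch1 at 174 ± 58.9 CPM among them (2.49, SE 0.23).

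Of 14 basement membrane genes and integrins 11 passed and 10 were called higher. The collagen chain Col4a1 had 280 ± 102 CPM (3.69, SE 0.19), the integrin Itga6, a laminin receptor, 600 ± 196 CPM (4.04, SE 0.18), and the laminin chain Lamb2 144 ± 50.8 CPM (3.99, SE 0.28). Of 11 genes of vascular tone and clotting 7 passed and 5 were called, with Nos3, the endothelial nitric oxide synthase, the one with the smallest SD relative to its mean, at 141 ± 16.7 CPM (5.69, SE 0.29).

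**Figure D5:**
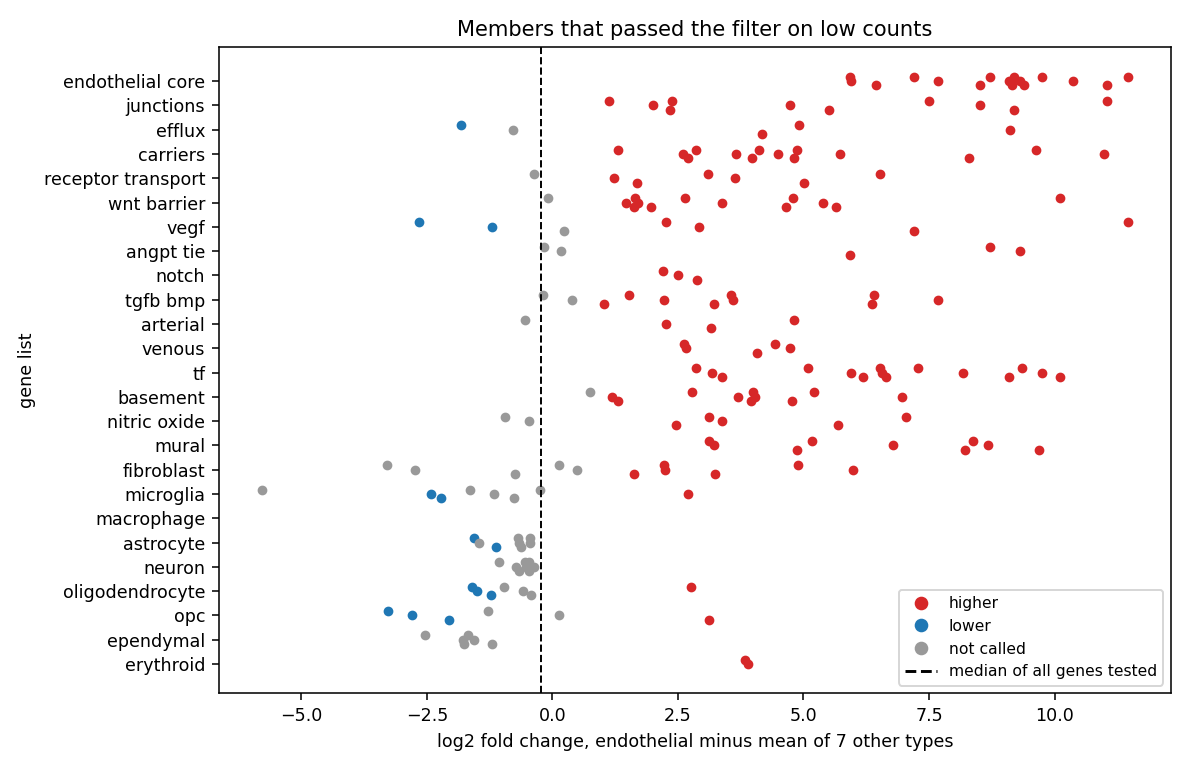
Log2 fold change of endothelial nuclei against the mean of the other 7 types (horizontal axis) for each member of each gene list (rows) that passed the filter on low counts, coloured by call. The dashed line is the median of all tested genes, -0.23. The medians of the neuron, astrocyte, microglia, oligodendrocyte, OPC and ependymal lists lie below it, while the mural members plotted (median 6.78 over 9) lie above.

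Markers of arteries and veins were sparse. Of 9 arterial genes 4 passed and 3 were called higher, and of 10 venous genes 5 passed and 5 were called. Mgp, an arterial and fibroblast gene, had 148 ± 224 CPM, with 625.3 CPM in female_biol_rep 6 and 0 in biol_rep 1 and 4, against 673 in fibroblasts. Nr2f2, a factor that specifies veins, had 124 ± 79.4 CPM (2.66, SE 0.27) and Il1r1 80.4 ± 33.8 CPM. At least 2 arterial genes were found in 23 of the 215 nuclei, at least 2 venous genes in 60, both in 13 and neither in 145. At least 2 arterial genes were also found in 41 of 179 fibroblast nuclei and 876 of 10410 neurons, a share in fibroblasts above that in endothelial nuclei, and at least 2 venous genes in 32 and 197. Depth differs between these types, with medians of 1756, 2040 and 11157 UMIs. Lcn2 and Selp, genes of inflamed or venous endothelium, were at 0 in all 7 sums.

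Mural markers were high in the same nuclei. Of 12 genes of pericytes and smooth muscle 9 passed and 9 were called higher, and their summed level ran from 536 UPM in biol_rep 4 to 7461 in female_biol_rep 1, with a median of 5362. Fibroblast sums had 1722 to 3478. The most abundant were Rgs5, at 1178 ± 599 CPM (9.69, SE 0.21), and Vtn, at 1165 ± 921 CPM and 983 CPM in fibroblasts. Vtn was at 57.3 CPM in biol_rep 4, and the smooth muscle gene Acta2 was at 0 in 4 of the 7 sums and at 651 CPM in female_biol_rep 6.

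At least 3 of the 12 mural genes were found in 52 of the 215 endothelial nuclei, 48 of which also had at least 5 core genes, and in 48 of 179 fibroblast nuclei. The 9 nuclei led by the mural list had 2321 UPM of Rgs5 against 1450 in those led by the core, and 3349 against 5674 for Flt1. Both genes are in the lists that made the groups, so these differences follow in part from the grouping. Without nuclei led by any list other than the core, Rgs5 stayed at a log2 fold change of 9.69 and Vtn at 8.33, and Atp13a5, a transporter of pericytes, went from 5.17 to 3.98. That setting also lacked the endothelial sum of biol_rep 1, and leaving out biol_rep 1 alone gave 4.44 for Atp13a5. In sums over nuclei, more mural nuclei and more mural RNA per nucleus cannot be told apart, and the part of mural RNA in the other calls was not tested.

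Marker lists of other brain cells were read against the same background of 15.9% called higher and 19.4% lower. Of the 8 microglia genes 1 was called higher and 2 lower, and Tmem119 was at 0 in all 7 sums against 566 CPM in microglia. Their summed level was 140 to 396 UPM. Of 5 macrophage genes none passed the filter, and Lyve1 was at 0. Astrocyte genes summed to 234 to 1184 UPM with 0 called higher and 2 lower, ependymal genes to 8.94 to 75.2 with none called, and the OPC list had 3 lower and 1 higher, Cspg4, which pericytes also make. Of 12 fibroblast genes 6 were called higher against the mean of all types, or 3 without female_biol_rep 6, although their sum ran only from 63.9 to 1111 UPM; Slc47a1 was at 0 in all 7 sums and Bnc2 at 1 CPM. The calls of Col1a2 and Lama1 turned to log2 fold changes of -0.18 and -0.010 without nuclei led by other lists.

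Mal, a myelin and raft protein used as the oligodendrocyte marker, was called higher with 245 ± 118 CPM (2.75, SE 0.30, adjusted p 3.1e-12) although oligodendrocytes had 3326 CPM. It ranged from 98.2 to 412 CPM over the 7 sums and was between 9.07 and 30.6 CPM in the other 6 types. Mbp and Mobp, genes of myelin proteins, were called lower, at 60 and 11 CPM. Haemoglobin genes were scattered, with Hbb-bs at 7095 CPM in female_biol_rep 6 and between 0 and 216 CPM in the other 6 sums; without that library its log2 fold change went from 3.83 to 0.49 (adjusted p 0.582).

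Against fibroblasts, the other vessel-associated type with 8 sums, 1050 genes were called higher (10.7%) and 807 lower (8.2%) of 9842. Without nuclei led by other lists they were 1133 and 1209, so that lower calls became the more numerous, and without biol_rep 3 and 4 they were 948 and 948. All 16 core genes that passed were higher, and of 11 fibroblast genes that passed all 11 were lower. Prom1, a membrane protein of many progenitor cells, ran from 247 to 638 CPM in endothelial nuclei with a median of 331 and was at 0 in all fibroblast sums, at least 60.5 times higher when fibroblasts are set at 3 counts over their sums. Erg, at least 36.3 times, Sema7a, a membrane semaphorin, at least 27.4 times, Ddc, the dopa decarboxylase, at least 24.0 times, and Layn, a hyaluronan receptor, at least 22.2 times were likewise at 0 in fibroblasts. The reverse held for Slc47a1, an organic cation exporter, which was at least 202 times lower in endothelial nuclei, and for Slc26a7, an anion transporter, at least 49.1 times lower.

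Of 14 carriers that passed all 14 were higher than in fibroblasts, with Slc2a1 at 904 against 21.4 CPM (5.21, SE 0.39, adjusted p 7.4e-18). Of 9 mural genes that passed 3 were higher, and Vtn, Atp13a5 and Pdgfrb, the platelet-derived growth factor receptor, were not called (adjusted p 0.79, 0.74 and 0.70). Of 11 basement membrane genes 5 were higher and 2 lower. The lower ones were Nid1 (-1.47, SE 0.43, adjusted p 0.0099) and Lamc1 (-0.85, SE 0.27, adjusted p 0.02), the nidogen and laminin gamma chains. Angpt1, the ligand of Tek, was lower as well (-2.08, SE 0.61, adjusted p 0.0091).

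Against astrocytes, whose endfeet cover the vessels, 1625 genes were called higher (16.5%) and 2320 lower (23.6%). Without nuclei led by other lists the counts were 1475 and 2556, and without biol_rep 3 and 4 they were 1583 and 2282. Of 14 carriers that passed 12 were higher. Slc38a3, a glutamine transporter, was not called, at 100 ± 52.2 CPM and 134 in astrocytes (-0.40, SE 0.28, adjusted p 0.27). Slco1c1 was higher by 4.82 (SE 0.33) and Slc2a1 by 3.44 (SE 0.27). Vegfa was lower by -5.01 (SE 0.67, adjusted p 1.8e-09), and the 8 astrocyte genes that passed were all lower.

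Within endothelial nuclei, female_biol_rep was compared with biol_rep over 4 and 3 sums, in 1931 genes with at least 20 UMIs in each set and a log2 ratio of the sets over all nuclei between -3 and 3. CPM in this comparison are relative to the UMIs of these 1931 genes alone, so they are higher than on the scale used above and are not comparable with it. edgeR called 14 higher (0.725%) and 9 lower (0.466%) in female_biol_rep, and 354 (18.3%) had an unadjusted p under 0.05. All 23 called genes had the same sign over all nuclei, and in 18 of the 23 the log2 ratio of the sets over all nuclei was over 1 in size. Wdr89 was at 23.9, 28.9 and 15.6 CPM in biol_rep 1, 3 and 4 and at 580, 1141, 858 and 415 CPM in the female_biol_rep sums, without overlap (4.87, SE 0.53, adjusted p 0.0039). Over all nuclei, endothelial ones included, its log2 ratio of the sets was 2.92. Spag6l and Rrm2b followed at 4.82 (SE 0.75) and 2.81 (SE 0.52), and Spag6l had an all-nuclei ratio of 1.49. Ucp2 and Cnot6 followed at 2.44 (SE 0.51) and 2.37 (SE 0.36), with ratios of 2.26 and 1.60.

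Of the genes lower in female_biol_rep, Rpl9, which encodes a ribosomal protein, was at 548, 886 and 453 CPM in the biol_rep sums and at 96.6, 21.5, 0 and 73.3 CPM in the female_biol_rep sums (-3.86, SE 0.61, adjusted p 0.022), and its all-nuclei ratio was -2.57. Rpl13a and Rpl30 were lower by -3.51 (SE 0.60) and -2.28 (SE 0.47), and B3gnt2, a glycosyltransferase, by -3.35 (SE 0.63). Kcnd2, a neuronal potassium channel, overlapped between the sets, at 215, 2226 and 2747 CPM in biol_rep 1, 3 and 4 and 151 to 225 CPM in female_biol_rep, which is the order of the neuron list in the same sums. Without biol_rep 1 the calls were 41 higher and 166 lower, without biol_rep 3 they were 47 higher, without biol_rep 4 they were 2 and 1, and without female_biol_rep 4 or 5 it was 1 and 0.

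The difference between the sets in endothelial nuclei was tested against the mean difference in the other types, over 10898 genes. It was higher for 1 (0.00918%) and lower for 3 (0.0275%) of them, with 847 (7.77%) at an unadjusted p under 0.05. Ltbp4, which anchors TGF-beta in the matrix, averaged 181 CPM in biol_rep and 326 CPM in female_biol_rep endothelial sums, and 120 and 31.3 CPM in fibroblasts (difference 2.81, SE 0.57, adjusted p 0.026). Its endothelial sums overlapped, with 110 CPM in female_biol_rep 1 below all 3 biol_rep sums. Rabl6 averaged 119 and 26.0 CPM (-2.10, SE 0.38), and Unc5c, a netrin receptor of neurons, 371 and 16.6 CPM (-4.20, SE 0.88). Unc5c was at 64.0 CPM in biol_rep 1 and at 427 and 622 CPM in biol_rep 3 and 4, the endothelial sums with most neuronal RNA. Without nuclei led by another list none of the genes was called, nor without biol_rep 3 or without female_biol_rep 4, 5 or 6. The first of these settings also lost the endothelial sum of biol_rep 1, and leaving out biol_rep 1 alone kept 1 call.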

How the data were processed

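The authors sequenced nuclei with droplet 3′ chemistry and deposited whole UMI counts per gene and nucleus, unnormalised, for 33502 gene symbols. Cell Ranger 6.1.1 and build mm10 are named in the submitters' processing notes, while the methods name another Cell Ranger version; no source used here gives the annotation release. The methods state that nuclei with fewer than 200 genes or over 5% mitochondrial UMIs and clusters of doublets or low quality were removed; no doublet caller was run here. The deposited percent of mitochondrial UMIs was made by the authors; the 13 mitochondrial genes have 562659 UMIs in female_biol_rep nuclei and 0 in biol_rep nuclei. In all 20503 nuclei the sums equal the deposited totals. Another 20 metadata columns were not used. Results for some genes are not reported here.

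UMIs were summed per library and deposited cell type, sums under 10 nuclei were left out, and edgeR 4.0.16 (R 4.3.3; TMM, filterByExpr, quasi-likelihood test, Benjamini-Hochberg) was run on all genes. CPM are counts per 1000000 UMIs of the genes that a fit tested, scaled by TMM, so the set comparison within endothelial nuclei has a scale of its own; the test of the set difference against other types is printed on the main scale. UPM are per 1000000 of all UMIs, unscaled. Genes that failed the filter are given from a fit without it. Set comparisons used 17365 genes with at least 20 UMIs in each set and a log2 ratio under 3. The code was tested on simulated data. The rule for genes to name took Flt1, the 4 most abundant of each list, the 15 highest and 5 lowest called and the leading genes of the other comparisons, not all of which are described; other list members named were chosen after their values were seen. The nuclei, lists and comparisons were chosen with earlier results of these data known. Sums of a library share its pooled mice: endothelial sums correlated with other types of their library (mean r 0.333, n = 46 pairs, lowest 0.0125) and not with other libraries (mean r -0.0369). The labels do not say that libraries are from separate animals beyond their titles, so p-values measure the spread between these libraries. Alternatives left out libraries, nuclei or the filter, or used DESeq2 1.42.0 or a block. Python 3.11.15, numpy 2.4.6 and scipy 1.17.1 were used.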

Additional observations from a re-analysis of the deposited data

Results flagged for a closer look

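Of 113 groups of values in female_biol_rep and biol_rep libraries that were tested for a lone value, 8 had one, where chance gives about 1 in 20. In female_biol_rep endothelial sums, Gkn3, an arterial gene, had 459 CPM in library 6 and at most 61.8 CPM in the other 3, and Jag1, a Notch ligand, had 217 CPM in library 6 and at most 51.5 CPM elsewhere. The summed haemoglobin and erythroid list stood at 13660 UPM in library 6 and at most 365 in the others. Ptprb had 1806 CPM in library 4, against 1173 to 1251 CPM. Library 1 had the highest Notch1 (284 CPM) and Ece1 (347 CPM), the lowest Nos3 (126 CPM) and the lowest sum of the transcription factor list (4793 UPM against 7121 to 7601).

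The difference between the sets of libraries differed between endothelial nuclei and the mean of other types for Ltbp4 (2.81 on the log2 scale), Rabl6 (-2.10) and Unc5c (-4.20), all 3 by edgeR's test of that difference. Among endothelial sums neuronal RNA was highest in biol_rep 3 and 4, and its part in these values was not tested.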

How the results depend on the processing

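The counts of endothelial genes against other types kept within 1.5 times of the main counts under DESeq2, its size factors and no filter. They also did so with the genes kept for set comparisons, at least 5 nuclei and the library as block. The same held for the female_biol_rep libraries alone and for each library left out, although the more numerous direction against all types turned in some of these settings, as given above. With at least 20 nuclei per sum the counts were 990 higher and 320 lower against all types, and 463 and 394 against fibroblasts. Against astrocytes they were 1461 and 1407, with higher calls the more numerous. With biol_rep libraries alone they were, in the same order, 1023 and 356, 309 and 185, and 1077 and 1314. The first setting leaves only the endothelial sums of biol_rep 3 and 4, where the neuron list led most nuclei, and the second those of biol_rep 1, 3 and 4. Of single genes and lists under an alternative, 4870 values kept their direction and side of the threshold, 160 lost and 61 gained a call, 17 list counts moved and 8 values changed sign. Those were Lama1, from 2.24 to -0.64 with at least 20 nuclei, -0.010 without nuclei led by other lists, -1.68 without female_biol_rep 6 (range -1.68 to 3.12 with 1 library left out) and -0.97 with biol_rep libraries alone, Bmp6, from 1.53 to -1.37, -0.073 (range -0.073 to 2.13) and -0.25 under the last 3 of these, and Col1a2, from 1.63 to -0.18 without nuclei led by other lists; the cause was not tested.

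The set comparison within endothelial nuclei moved most, from 14 higher and 9 lower to 38 and 26 with DESeq2, 84 and 248 without the filter, 23 and 16 with at least 5 nuclei, and 27 and 31 without nuclei led by other lists. Leaving out those nuclei also lost the endothelial sum of biol_rep 1, in each comparison. Leaving out 1 library at a time gave 1 to 47 higher and 0 to 166 lower. A replicate block by number, which pairs only the libraries numbered 1 and 4 and rests on no shared animal, gave 0 and 0. The difference between endothelial nuclei and other types gave 2 and 11 with DESeq2, 0 and 0 without nuclei led by other lists, 3 higher with the library as block, and 0 to 3 in each direction when 1 library was left out. The sums held 10 to 64 nuclei each, and Vegfa had UMIs in only 2 of the 7.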
